A study of Mus musculus with 4 samples.

Results

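The secreted factors examined here are 9 genes whose proteins leave the fat cell and act on other cells: Fgf21, Nrg4, Bmp8b, Bmp7, Bmp4, Gdf15, Mstn, Fst and Vegfa. They were found by their gene names in the scanner files, which gave 13 probes for 9 genes out of 55681 probes and 22066 RefSeq genes on the array. The data are 4 Agilent mouse genome arrays of one colour, 1 for each genotype and tissue. Wild-type (WT) and ASK1KO mice were compared in interscapular brown adipose tissue (iBAT) and in white adipose tissue of the epididymal pad (eWAT). ASK1KO mice lack the kinase ASK1, the product of Map3k5, in the whole body, so every cell type of the tissue carries the deletion. All mice were untreated males of the C57BL/6J background aged 10 weeks, and each array received Cy3-labelled RNA from 1 pool of 3 mice. There is thus no replicate of any group, the mice of a pool cannot be separated, and no test was possible within a tissue. The WT and the ASK1KO mice were bred as separate colonies, so genotype and colony cannot be told apart.

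Brown fat burns lipid for heat through the uncoupling protein Ucp1, and it also signals to other organs through secreted proteins. FGF21 is a hormone that acts through FGF receptors with the co-receptor β-Klotho and is made mainly in liver. Neuregulin 4 binds the receptor ErbB4, bone morphogenetic proteins (BMPs) activate SMAD transcription factors and direct adipocyte commitment, myostatin restrains muscle growth through activin receptors and is bound by follistatin, GDF15 acts on the brainstem receptor GFRAL with RET, and VEGF-A drives the growth of capillaries.

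The sequence of 1 Nrg4 probe is shown because the probes of this gene gave different sizes of the same tissue difference. It lies on chr9 between 55075745 and 55084303 on the minus strand of mm9. The probe is 60 bases long but spans 8559 bases of the genome, so it reads across a splice junction.
Nrg4 A_55_P2185905: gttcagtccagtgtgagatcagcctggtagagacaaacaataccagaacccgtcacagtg
Exons and untranslated regions were not assigned to the probes, since no annotation of mm9 was used.

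Stretches of promoter are shown for 4 members that the arrays separated by tissue or detected on 1 array, with the letters of the searched motifs in capitals. They were taken from RefSeq windows of 250 bases before to 50 after a start site, on GRCm38.p6, and are written on the strand of the gene. The Fgf21 stretch is chr7:45615523-45615641, the Gdf15 stretch chr8:70632161-70632190, the Bmp4 stretch chr14:46390840-46390869 (all minus strand) and the Mstn stretch chr1:53061570-53061598 (plus strand).
Fgf21: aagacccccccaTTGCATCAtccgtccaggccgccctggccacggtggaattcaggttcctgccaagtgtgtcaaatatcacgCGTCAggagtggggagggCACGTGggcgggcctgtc
Gdf15: cacagggcagggCACGTGtgagcatccagt
Bmp4: tagtacctcttgCACGTGgtccccaggtga
Mstn: aatcatagatccTGACGacacttgtctcc
The motifs searched on both strands were TGACGTCA (the cyclic AMP response element), TGACG (its shorter form, which any match of the longer one contains), TGATGNAA (the composite element bound by ATF4) and ACGTG (the core of the hypoxia response element, also part of the E-box CACGTG). The table of windows holds 9 for 7 of the members, and none for Bmp7 and Fst. TGATGNAA was found in 1 of 9 windows, that of Fgf21, starting 139 bases before the start site, and in 3.97% of all 32851 windows. TGACG was found in 3 of 9 windows and in 20.8% of all. ACGTG was found in 6 of 9 and in 19.6% of all, and TGACGTCA in 0 of 9 and 1.79% of all. A match is a run of letters and not a binding site.

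The checks of the labels gave mixed results for the targeted gene. Of the 2 Map3k5 probes, the one at chr10:19860474-19861330 had signals of 448.0 (WT) and 117 (ASK1KO) in iBAT, and of 701 (WT) and 194 (ASK1KO) in eWAT. The other, at chr10:19862193-19862252, gave a log2 ratio of ASK1KO to WT of -0.06 in iBAT and -0.51 in eWAT, and which part of the gene is deleted is not given in the sources used here, so a probe outside it would check nothing. Over the arrays, 28985 to 33389 probes were well above background and the 75th percentile of the signal ran from 356 in WT iBAT to 673 in WT eWAT. Signals were therefore divided by that percentile before arrays were compared, and a scaled log2 level of 0 is the 75th percentile of the array. The tissue labels fit their marker lists. Of the markers above background on all 4 arrays, all 9 of brown adipocytes were higher in iBAT in the tissue fit described below and all 3 of white adipocytes lower. Ucp1 differed by 8.71 on the log2 scale and Lep by -4.49, while Adipoq, made by every adipocyte, differed by -0.67.

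Of the 9 members, 6 were well above background on all 4 arrays, 1 (Mstn) on 2 arrays, 1 (Fgf21) on 1 array and 1 (Bmp8b) on none. Bmp8b and Fgf21 were not above background in iBAT of either genotype. The tissues were compared with a limma fit of tissue and genotype over the 4 arrays, which has 2 arrays a tissue and 1 residual degree of freedom per gene, with Benjamini-Hochberg adjustment over the 15803 genes that had a probe well above background on at least 2 arrays. In that fit 49.8% of genes passed an adjusted p of 0.05, with 25.1% higher and 24.7% lower in iBAT. Of the 6 members detected on all arrays, Vegfa and Nrg4 were higher in iBAT, Bmp4, Bmp7 and Gdf15 were lower, and Fst did not pass. By the 2-fold rule, applied to the 2 arrays of a genotype with no test, Vegfa and Nrg4 were at least 2-fold higher in iBAT of WT mice, beside 16.4% of 14236 genes, and Bmp4, Bmp7 and Gdf15 at least 2-fold lower, beside 13.4% (29.8% in both directions). In ASK1KO mice the calls fell on the same members, beside 12.3% of 14513 genes higher, 12.6% lower and 25% in all. The 2-fold call of Nrg4 was close to the threshold (log2 ratio 1.09 in WT and 1.04 in ASK1KO mice) and was lost in both genotypes with normexp, quantile normalization, no scaling and the brightest probe alone. The call of Gdf15 was lost in both with normexp (-0.44 and -0.87), and that of Bmp4 was lost in both with no filter on dim probes (-0.96 and -0.84). Mstn entered the fit through the 2 iBAT arrays alone, so its call there is not counted. For the other genes and lists below, fitted tissue values, counts and medians come from the same model on probes above background on all 4 arrays alone, so that no probe enters through 1 tissue. In that fit 30.8% of 14057 genes were higher and 24.6% lower in iBAT, with a median of 0.07.

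**Figure D1:**
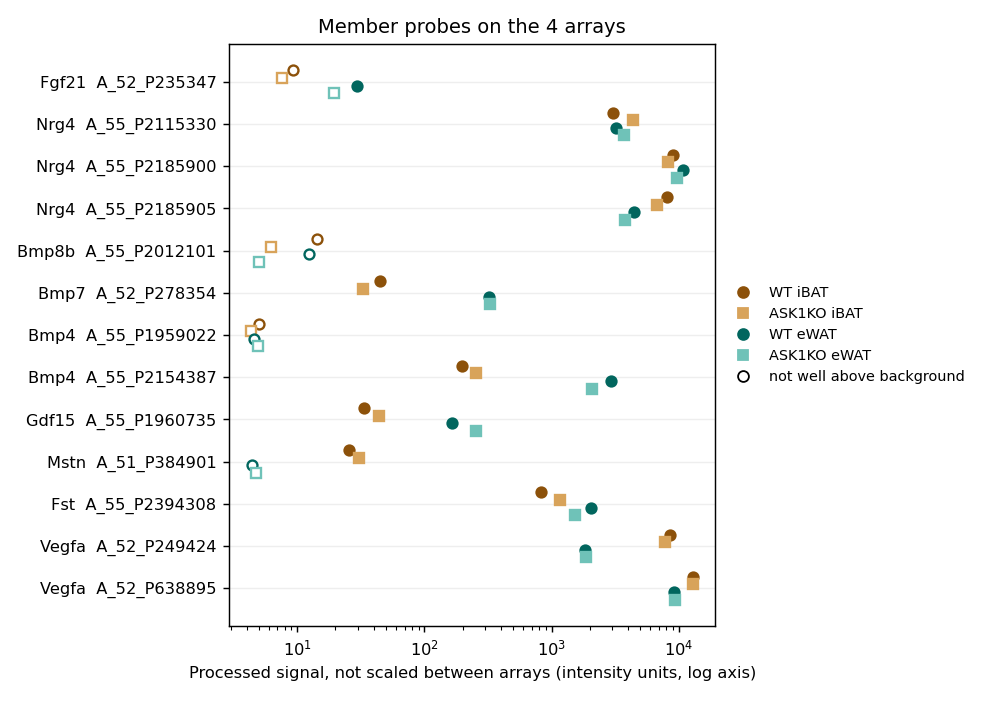
Processed signal of the 13 member probes on the 4 arrays, before scaling between arrays (x axis, intensity units, log scale). Each point is 1 array (1 pool of 3 mice), and open points were not well above background. The Bmp7, Gdf15 and brighter Bmp4 points of eWAT lie to the right of those of iBAT, the Mstn points to the left, and all 4 Bmp8b points are open.

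Nrg4, a ligand released by brown fat that acts on liver, has 3 probes on chr9. The splice-junction probe gave signals of 8024 in WT iBAT, 6704 in ASK1KO iBAT, 4454 in WT eWAT and 3756 in ASK1KO eWAT. Both iBAT arrays were above both eWAT arrays, and the log2 ratio of iBAT to eWAT was 1.77 in WT and 1.61 in ASK1KO mice after scaling. The probe at chr9:55068030-55068089, toward the 3′ end of the gene, gave 8958, 8248, 10784 and 9756 in the same order. Here the eWAT signals were the higher ones before scaling, and the scaled log2 ratio was 0.65 in WT and 0.53 in ASK1KO mice. The probe at chr9:55088520-55088579, designed on a separate transcript, gave 3064, 4366, 3240 and 3732, with scaled log2 ratios of 0.84 and 1.0. Averaged over the probes, Nrg4 was 1.07 (SE 0.146) higher in iBAT on the log2 scale, with an adjusted p of 0.0073 in the limma fit. Taken alone, each probe also passed, with differences of 1.69, 0.59 and 0.92 (adjusted p of 0.0022, 0.035 and 0.011 over all probes in limma). The call for Nrg4 depended on scaling: with no scaling between arrays the difference was 0.22 and the adjusted p 0.20. The brightest probe alone gave 0.59.

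ErbB4 and its relatives are the receptors of the neuregulins. Erbb4 itself had signals of 249 (WT) and 326 (ASK1KO) in iBAT but 8.13 and 7.59 in eWAT, and the eWAT signals of this probe were not well above background. It was at least 25.9-fold higher in iBAT at this probe, a bound with no test, since the gene entered the fit through the iBAT arrays. A second Erbb4 probe was above background in WT eWAT alone, at a signal of 25.7. Egfr (-3.20) and Erbb2 (-0.85) were lower in iBAT. Nrg2 was detected in eWAT alone, at least 2.13-fold higher there, and Erbb3, Nrg1 and Nrg3 were not above background on any array.

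Vegfa, the main capillary growth factor, had the largest excess in iBAT of the members detected on all arrays. The first of its 2 probes had signals of 8509 in WT iBAT, 7843 in ASK1KO iBAT, 1844 in WT eWAT and 1860 in ASK1KO eWAT. The iBAT levels exceeded the eWAT levels in both genotypes, by a scaled log2 ratio of 3.13 in WT and 2.85 in ASK1KO mice. The second probe, at chr17:46154387-46154446, had 12902, 12993, 9112 and 9383, with scaled log2 ratios of 1.42 and 1.24. It is printed as 2 spots on each array, whose signals were 13208 and 12603 in WT iBAT and 9307 and 8921 in WT eWAT, so the gap between the probes was larger than the gap between spots. The 2 probes were 2.99 (SE 0.167) and 1.33 (SE 0.159) higher in iBAT, with adjusted p of 0.00079 and 0.0041 in limma over all probes, and their mean was 2.16 (SE 0.156, adjusted p 0.0019). Without scaling the mean was 1.31, and the brighter probe alone also gave 1.33.

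Of the 8 other genes of the VEGF family counted, 5 were higher in iBAT, 2 lower and 1 did not pass, with a median difference of 0.69. Nrp2, a co-receptor, was 1.64 higher and Vegfb, the ligand of FLT1, 0.91 higher in iBAT. The lymphatic growth factors Vegfd and Vegfc were lower, by -3.02 and -1.08. Among 12 hypoxia-inducible factors and their targets 6 were higher and 3 lower, with a median of 0.35. The oxygen sensors Egln1 (1.63) and Egln3 (1.60) were higher, and the vasoactive peptide Adm (-1.92) and Ndrg1 (-1.24) were lower. The 5 endothelial markers had summed scaled signals between 15.99 and 19.7 on the 4 arrays, and 1 of 5 passed in the tissue fit (Tie1, 0.70 higher in iBAT). The endothelial VEGF receptors Kdr (0.81) and Flt1 (0.61) were also higher in iBAT, and the part of endothelial cells in these differences was not tested. In bulk tissue, fewer cells of a type and less RNA per cell cannot be told apart.

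**Figure D2:**
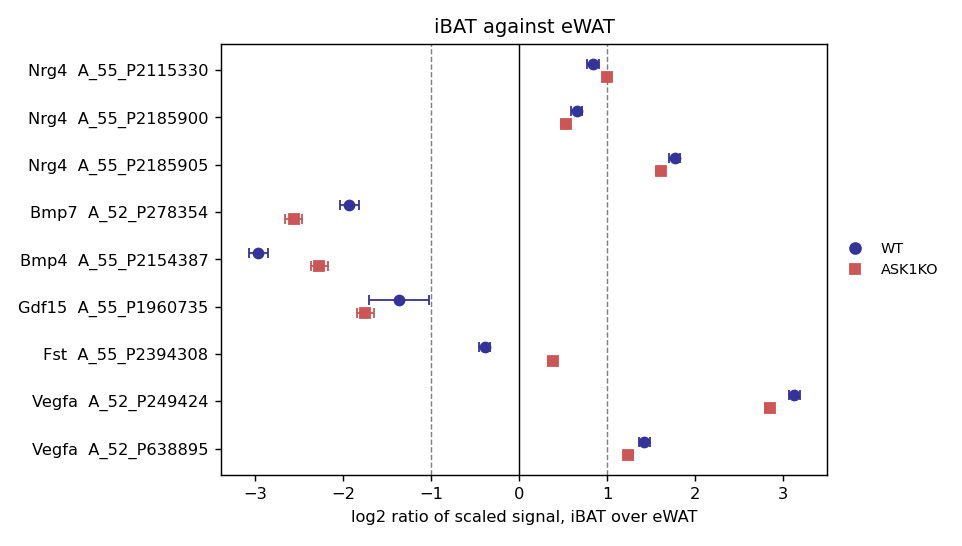
Log2 ratio of scaled signal, iBAT over eWAT (x axis), for the 9 member probes well above background on all 4 arrays, with WT as circles and ASK1KO as squares. Bars are the median SD between repeated spots of probes of like signal, a spread of the array that leaves out the mice, and dashed lines mark 2-fold. The first Vegfa probe lies at 3.13 and 2.85, Bmp4 at -2.96 and -2.27, and the Fst points lie on opposite sides of 0.

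Bmp4, which commits mesenchymal cells to the white adipocyte lineage, had the largest fitted excess in eWAT, while Bmp7 exceeded it in ASK1KO mice (-2.56 against -2.27), without the WT iBAT array (-2.50 against -2.47) and with no filter on dim probes (-2.24 against -0.90). Its probe at chr14:47003391-47003450 had signals of 199 in WT iBAT, 254 in ASK1KO iBAT, 2939 in WT eWAT and 2096 in ASK1KO eWAT. The eWAT levels were far above those of iBAT in both genotypes, and the scaled log2 ratio of iBAT to eWAT was -2.96 in WT and -2.27 in ASK1KO mice. The fitted difference was -2.62 (SE 0.224, adjusted p 0.0025 in limma). A second probe, 193 bases away with a GC content of 15%, had signals between 4.35 and 4.99 and was not above background on any array. Counting that probe too brought the difference to -0.90 (adjusted p 0.031).

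Bmp7, a BMP known for promoting brown adipocyte differentiation, was also lower in iBAT. Its probe at chr2:172695203-172695262 had signals of 44.6 in WT iBAT, 32.8 in ASK1KO iBAT, 321 in WT eWAT and 330.2 in ASK1KO eWAT. The iBAT signals were low but well above background, and the scaled log2 ratios were -1.93 in WT and -2.56 in ASK1KO mice. The fitted difference was -2.24 (SE 0.212, adjusted p 0.0031 in limma), and normexp background correction, which pulls dim probes together, gave -1.18.

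Bmp8b, described in thermogenic adipocytes, was not measured above background. Its probe at chr4:122803275-122803334 had signals of 14.3, 6.21, 12.3 and 5.004 in WT iBAT, ASK1KO iBAT, WT eWAT and ASK1KO eWAT. All lay below 17.3, the smallest signal called well above background on any array, so neither a fold nor a direction is given. The related gene Bmp8a was detected on all arrays, with 489 and 534 in iBAT and 822 and 775 in eWAT, and did not pass in the tissue fit (0.20, adjusted p 0.28 in limma). Its probe is separate, and whether the Bmp8b probe also takes up Bmp8a transcripts was not tested.

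The rest of the BMP pathway was read from lists of receptors, inhibitors, targets and other ligands. Of 8 receptors and SMADs, 0 were higher and 3 lower in iBAT (median -0.20), among them Acvr1 (-0.84) and Bmpr1a (-0.70). Bmpr1b and Smad9 were above background in eWAT alone and are not counted. Of 8 extracellular and intracellular inhibitors, 1 was higher and 5 lower (median -0.82). The secreted antagonists Chrdl1 (-4.41) and Nbl1 (-2.31) were lower in iBAT, as was Bmper (-2.02). Sostdc1 was above background in iBAT alone, with a bound of at least 2.38-fold. Of 9 genes that BMP signalling induces, 4 were higher and 1 lower (median 0.53), with Id1 at 1.10, Id2 at 1.05, Msx2 at 0.92 and Hey1 at -0.93. Of 8 other ligands 2 were higher and 3 lower (median 0.31). Gdf5, a joint morphogen of the BMP family, was 2.61 higher in iBAT, as was Gdf7 (1.66), and Gdf10 (-2.55) and Bmp2 (-1.19) were lower. Bmp5 was detected in iBAT alone (at least 2.82-fold), and Bmp3 had 1 iBAT array above background.

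Gdf15, a stress-induced hormone that lowers food intake, was lower in iBAT. Its probe at chr8:73153293-73153352 had signals of 33.7 in WT iBAT, 44.1 in ASK1KO iBAT, 164 in WT eWAT and 253 in ASK1KO eWAT. Both eWAT signals were above both iBAT signals, and the scaled log2 ratio was -1.37 in WT and -1.75 in ASK1KO mice. The fitted difference was -1.56 (SE 0.173, adjusted p 0.0045 in limma). Without the WT iBAT array it was -1.39 and the adjusted p 0.057, and normexp correction gave -0.65 (adjusted p 0.0034). Ret, the signalling chain of the GDF15 receptor complex, differed by -2.03 in the same fit, and Gfral was not above background on any array.

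Gdf15 and Fgf21 are targets of the integrated stress response, in which ATF4 induces genes of amino acid supply. Of 11 genes of that list, Gdf15 included, 5 were higher and 4 lower in iBAT (median 0.35). The serine synthesis enzymes Psat1 (-4.44) and Phgdh (-3.25) were lower, as was Chac1 (-0.66). Ppp1r15a (1.07), Ddit3 (0.86), Atf3 (0.78), Atf4 (0.70) and Sesn2 (0.57) were higher. Gdf15 was thus among the 4 lower genes and Atf4 among the 5 higher, and a link between them was not tested.

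Fgf21 was detected on 1 array. Its probe at chr7:52869305-52869364, with a GC content of 20%, had signals of 9.24 in WT iBAT, 7.57 in ASK1KO iBAT, 29.7 in WT eWAT and 19.6 in ASK1KO eWAT. The WT eWAT signal was the sole one well above background, and it was at least 1.35-fold higher than in ASK1KO eWAT, a bound taken against the lowest signal called above background on that array. The same pool differed in liver transcripts. Alb, the albumin gene, had signals of 3234 in WT eWAT and 158 in ASK1KO eWAT, with 7.50 and 115 in iBAT. Ahsg had 2935 and 57.8 in eWAT, and all 8 hepatocyte markers were detected in WT eWAT and 6 of 8 in ASK1KO eWAT, beside 4 in WT and 8 in ASK1KO iBAT. The summed scaled signal of the list was 446 and 428 in eWAT and 68.5 to 71.0 in iBAT, most of it from Cyp2e1, which adipose tissue also expresses. The part of these transcripts in the Fgf21 signal was not tested.

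The FGF21 receptor system was present in both tissues. Klb, the obligate co-receptor, had signals of 2273 and 2126 in iBAT and 2971 and 2815 in eWAT and a difference of 0.45, whose adjusted p in limma was 0.041 here and 0.071 when probes detected on 2 arrays were fitted too. Fgfr1, the main receptor partner in fat, was lower in iBAT (-0.89, adjusted p 0.0029 in limma), as was Fgfrl1 (-0.60). Fgfr2 was higher (0.45, adjusted p 0.047 in limma), but 0.09 (adjusted p 0.65) when probes detected on 2 arrays were fitted too. Of the 6 receptors and co-receptors counted, 2 were thus higher and 2 lower. With probes detected on 2 arrays fitted too, 0 were higher and 2 lower. Of the 6 other FGF ligands counted 5 were lower in iBAT and 0 higher (median -1.81). The largest were Fgf10 (-3.41), a factor of white adipose development, Fgf18 (-2.33) and Fgf1 (-1.88).

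Mstn, the muscle growth inhibitor myostatin, was detected in iBAT and not in eWAT. Its probe at chr1:53124482-53124541 had signals of 25.7 in WT and 30.7 in ASK1KO iBAT, and of 4.45 and 4.78 in eWAT. The level in iBAT was at least 2.55-fold that in eWAT, with bounds of 2.57 in WT and 2.53 in ASK1KO mice. No p is given, since the gene entered the fit through the iBAT arrays. The fitted value of 3.45 is not a bound, since it uses eWAT signals below background, and with normexp correction it was 1.34. Markers of skeletal muscle, which lies next to the interscapular pad, were higher in the same 2 arrays. Of 12 muscle markers 10 were detected on each iBAT array, 9 in WT eWAT and 8 in ASK1KO eWAT, with summed scaled signals of 887 and 888 in iBAT and 9.88 and 5.29 in eWAT. Myh4 was 10.50, Tnni2 8.64 and Acta1 4.43 higher in iBAT on the log2 scale, and Myod1 and Myog were not above background on any array. The part of muscle RNA in the Mstn signal was not tested.

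Fst, follistatin, the secreted inhibitor of myostatin and activins, did not separate the tissues. Its probe at chr13:115243565-115243624 had signals of 826 in WT iBAT, 1161 in ASK1KO iBAT, 2049 in WT eWAT and 1522 in ASK1KO eWAT. On the scaled log2 scale the levels were 1.21, 1.65, 1.61 and 1.26, so the ASK1KO iBAT and WT eWAT arrays were the high ones. The log2 ratio of iBAT to eWAT was -0.39 in WT and 0.38 in ASK1KO mice, and the fitted difference was -0.0047 (SE 0.239, adjusted p 0.99 in limma). Of 10 activin and myostatin receptors, ligands and SMADs, 0 were higher and 5 lower in iBAT (median -0.42). Inhbb, the activin B subunit, differed by -4.13, Acvr1b by -1.17 and Acvr1c by -1.31, and Inha was above background in eWAT alone (at least 1.58-fold). Of the 4 genes counted in the list of follistatin-like genes, Fstl3 (-2.88) and Fstl1 (-2.30) were lower in iBAT, and Ltbp3 and Wfikkn2 did not pass. Fst was not shown to be lower.

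The tissue comparison can also be set against other proteins that brown fat is known to secrete. Of 16 such genes 4 were higher and 11 lower in iBAT (median -1.38). S100b (6.33), the prostaglandin synthase Ptgds (3.26) and the chemokine Cxcl14 (2.86) were among those higher. The largest of those lower in iBAT were Lep (-4.49), Retn (-3.18) and Rbp4 (-2.63), which white fat also secretes. Among markers of other cells, eWAT was higher for macrophages (4 of 5 past the threshold, Csf1r -2.19, Mrc1 -3.24) and for adipose progenitors (5 of 5, Dcn -1.63, Pi16 -1.97). When probes detected on 2 arrays were fitted too, 4 of 5 progenitor markers passed, without Ly6a. The 1 mesothelial marker detected on all arrays was also higher in eWAT. Of the other mesothelial markers Wt1 and Upk3b were detected in eWAT alone, at least 114-fold and 89.2-fold higher there. Summed scaled signals were 112 to 120 for macrophages in eWAT and 36.6 to 44.5 in iBAT, 355 to 361 and 110 to 136 for progenitors, and 27.5 to 32.5 and 0.273 to 0.291 for mesothelium. These lists moved in the direction of Bmp4, Bmp7 and Gdf15, and their part in those differences was not tested. None of 4 epididymal epithelium markers was above background on any array.

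**Figure D3:**
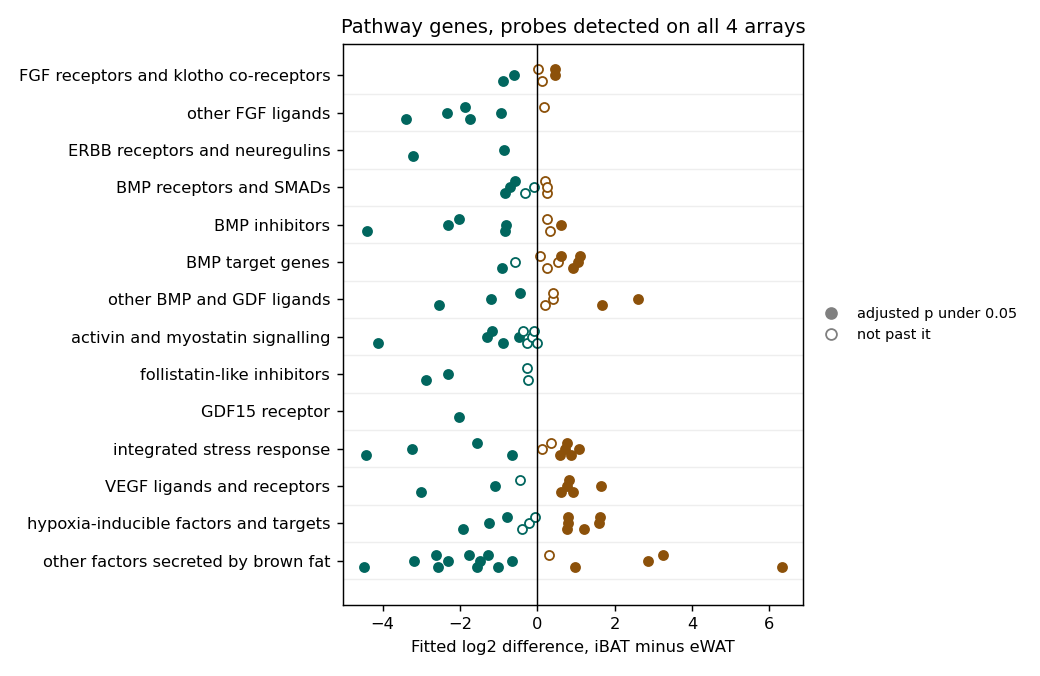
Fitted log2 difference between iBAT and eWAT (x axis) for each gene of the 14 pathway lists with a probe detected on all 4 arrays, 1 point a gene, filled where the adjusted p was under 0.05. Brown points lie above 0 (higher in iBAT) and green points below. No filled point lies above 0 in the lists of FGF ligands, ERBB receptors and neuregulins, BMP receptors, activin signalling, follistatin-like inhibitors and the GDF15 receptor.

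**Figure D4:**
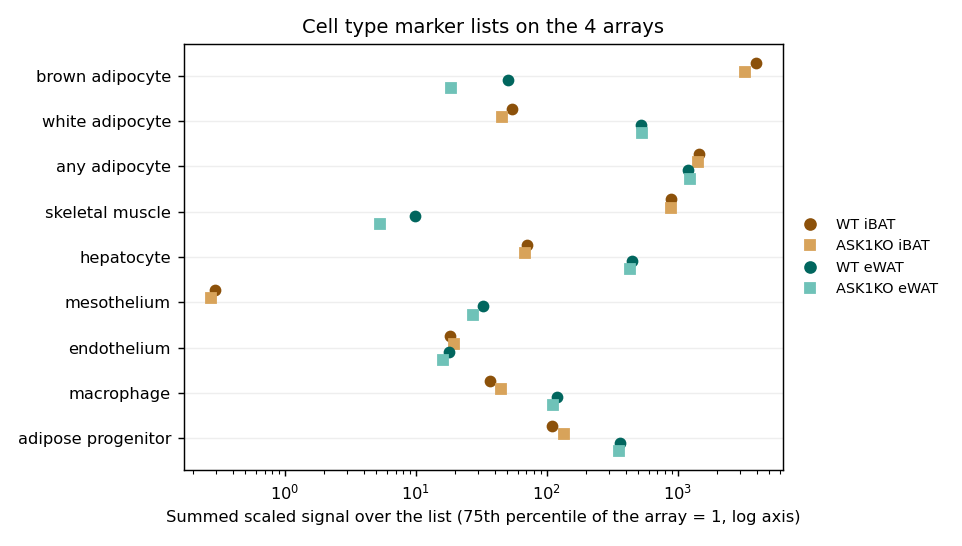
Summed signal of each cell type marker list on the 4 arrays, divided by the 75th percentile of the array (x axis, log scale); the epididymis list, with no marker detected, is left out. Skeletal muscle markers sum to 887 and 888 in iBAT and to 9.88 and 5.29 in eWAT, and endothelial markers lie between 15.99 and 19.7 on all 4 arrays.

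The second comparison is that of ASK1KO with WT mice in each tissue. Each ratio rests on 1 array a genotype, so it has no replicate check and no p-value. None of the 7 members measured in iBAT and none of the 6 measured in eWAT was at least 2-fold apart, beside 1.85% of 14377 genes in iBAT and 1.15% of 15377 genes in eWAT. In the fit over the 4 arrays, which assumes 1 genotype effect for both tissues, 0 of 15803 genes (0%) passed in limma, and 733 (4.64%) had an unadjusted p under 0.05. That fit gave adjusted p between 0.978 and 0.9999 for the 7 members tested.

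Gdf15 had the largest ratio among the members. It was higher in ASK1KO mice in both tissues, with a log2 ratio of 0.33 in iBAT and 0.71 in eWAT. In eWAT the ratio was 1.63-fold, and 0.787% of the genes measured there had a higher one. The SD of the ratio between repeated spots of like signal was 0.340 in iBAT and 0.087 in eWAT, so the eWAT value was larger than the SD and the iBAT value was not. That SD is of the array alone and leaves out the spread between mice and pools. In the genotype fit Gdf15 was 0.52 (SE 0.173) higher, with an unadjusted p of 0.038 and an adjusted p of 0.98.

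**Figure D5:**
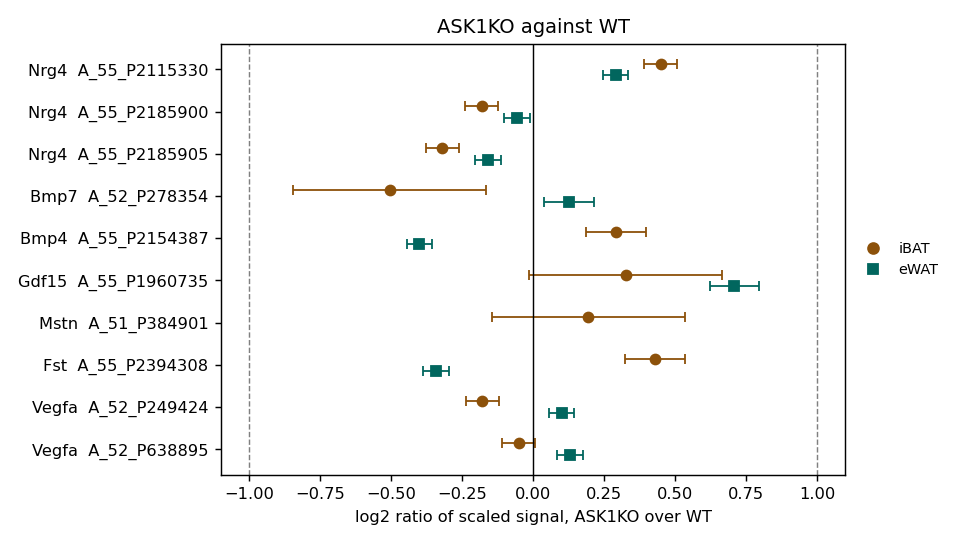
Log2 ratio of scaled signal, ASK1KO over WT (x axis), for 10 member probes, with iBAT as circles and eWAT as squares; Mstn was measured in iBAT alone. Bars are the median SD between repeated spots of probes of like signal, and dashed lines mark 2-fold. No probe reaches 2-fold, and Gdf15 in eWAT, at 0.71, lies farthest from 0.

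Bmp7, Bmp4 and Fst had ratios of opposite sign in the 2 tissues, as had the gene means of Vegfa and Nrg4 described next, beside 50.6% of the 14059 genes measured in both tissues. Opposite signs are thus common among all genes, and the count of 5 of 6 members is a description with no test. The Bmp7 ratio was -0.50 in iBAT and 0.13 in eWAT, beside technical SDs of 0.340 and 0.087. Bmp4 had 0.29 in iBAT and -0.40 in eWAT, and Fst 0.43 and -0.34, beside technical SDs of about 0.106 in iBAT and 0.045 in eWAT for both genes. The technical SDs leave out the spread between mice, which is not known here. With the dim Bmp4 probe averaged in, the Bmp4 ratios fell to 0.02 and -0.11, and normexp gave 0.15 in iBAT. In eWAT, 5.16% of genes had a lower ratio than Bmp4 and 6.78% a lower ratio than Fst.

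For Nrg4 and Vegfa the gene means lay close to 0. The mean over the Nrg4 probes was -0.02 in iBAT and 0.03 in eWAT, but its probes went different ways. The probe on the separate transcript was higher in ASK1KO mice in both tissues (0.45 and 0.29), and the splice-junction probe was lower in both (-0.32 and -0.16), as was the 3′ probe (-0.18 and -0.06). The technical SD at these signals was 0.058 in iBAT and 0.045 in eWAT. Vegfa had a mean of -0.12 in iBAT and 0.12 in eWAT, with -0.18 and 0.10 at the first probe. The sign of the iBAT mean of each gene changed in at least one scaling, since quantile normalization gave 0.10 for Nrg4 and 0.01 for Vegfa, and with no scaling the eWAT mean of Nrg4 was -0.06. Mstn had a log2 ratio of 0.19 in iBAT beside a technical SD of 0.340, and normexp correction gave -0.20.

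Across the 14 pathway lists, members left out, 2 of 108 genes measured in iBAT (1.85%) and 1 of 119 in eWAT (0.84%) were at least 2-fold apart between genotypes, close to the shares of all genes given above. Atf3, a transcription factor of the stress response, had signals of 940.4 in WT and 414 in ASK1KO iBAT, a log2 ratio of -1.25. Angptl4, a secreted inhibitor of lipoprotein lipase, had 54326 and 114880 in iBAT, a log2 ratio of 1.02, and 0.74 in eWAT. Fgf13 had 23.5 in WT and 64.0 in ASK1KO eWAT, a log2 ratio of 1.53, while a second Fgf13 probe had 25.2 and, not above background, 20.6. None of the genes of these lists passed in the genotype fit of limma. Brown adipocyte markers differed between the same arrays: their summed scaled signal was 3935 in WT and 3279 in ASK1KO iBAT, and 50.8 in WT and 18.4 in ASK1KO eWAT. All 5 macrophage markers were higher in ASK1KO iBAT (median log2 ratio 0.58, summed signal 36.6 in WT and 44.5 in ASK1KO mice), and all 5 were below 0 in eWAT (median -0.06). All 5 endothelial markers were also above 0 in iBAT (median 0.12), and 4 of 5 were below 0 in eWAT (median -0.12). In eWAT all 5 mesothelial markers were below 0 (median -0.25). Of the members in iBAT, Gdf15, Bmp4, Fst and Mstn had ratios above 0, and Bmp7, Vegfa and Nrg4 had ratios below 0. In eWAT 7 of 8 muscle markers had ratios below 0 (median -0.58). The 6 hepatocyte markers measured there were all below 0 (median -3.89), and 5 of them were at least 2-fold lower. In iBAT 3 of 4 hepatocyte markers were above 0 (median 0.05). The part of these cell types in the members' ratios was not tested.

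For each member detected on all arrays, the genes with the most similar course were sought by the Euclidean distance between centred log2 levels over the 4 arrays, among 14056 genes. Nrg4 lay nearest to Sox6 (distance 0.021), Vegfa to ATP8 (0.018) and Nanog, and Bmp4 to Vav1 (0.051) and Dab2. Bmp7 lay nearest to Fbxo45 (0.091) and Adrb3 (0.165), Gdf15 to Cyp26b1 (0.126) and Scp2d1, and Fst to Cnfn (0.026) and Meox1. With 4 arrays such nearness is common. Within a distance of 0.5 lay 2261 genes for Nrg4 and 2636 for Fst, but 105 for Bmp7 and 117 for Gdf15.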

How the data were processed

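The authors pooled RNA of 3 mice per group and deposited the scanner output of 4 arrays on 1 slide with 1 scan (Agilent Feature Extraction 10.7.3.1, probe positions on mm9). The intensities the authors deposited are linear and were background-corrected by the scanner software, with no scaling between arrays. The series table the authors deposited holds the same signal divided by 1 constant per array.

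Control and outlier spots were removed, the log2 signal of each probe was averaged over its spots, and the array's 75th percentile was subtracted. Probes above background on both arrays of a comparison were averaged per gene. Of 34844 gene names 22147 matched RefSeq. Tissue and genotype were fitted with limma 3.58.1 in R 4.3.3 (Python 3.11.15, pandas 2.3.3, matplotlib 3.10.9 otherwise). On simulated data the tissue fit recovered 200 of 200 changed genes (log2 change 2) over 15803 genes and called 5 unchanged ones. The simulated noise was independent with an SD of 0.2 for every gene, far smaller than the change. The run thus checks the code and cannot give the error rate of the calls in these data. Technical SDs come from probes with at least 5 usable spots. Precision is limited by the number of arrays. No group has a second pool, so the residual of the fit is the difference of the tissue effect between genotypes, and p-values hold no spread between pools of a group.

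The members, the 24 lists (199 genes) and the rule for named genes (members and their probes, label checks, genes at least 2-fold apart between genotypes and the 4 largest tissue differences of each pathway list, the 3 brightest of each list of other cell types, and the 2 nearest genes of each member) were chosen with earlier results of these data known. Other genes of the lists, such as Klb, Erbb3, Gfral, Alb and Ahsg, were named after their values were seen. Alternatives were normexp (offset 50), no scaling, quantile, 2 other centrings, the series table, other filters and probe rules, and all gene names. A 1.5-fold threshold, each array left out with tissue as the only term and, added later, each probe fitted alone were also tried. Where a probe was above background on both arrays of one tissue and neither of the other, an "at least" fold was given, from the bright tissue's mean scaled log2 level and, for each dim array, whichever was higher of its reading for that probe and its dimmest reading that cleared background. For genes of the lists the bound was taken from the probe with the highest mean log2 level, their printed signals from the probe with the highest mean signal, and fitted tissue values from the mean over probes above background on all 4 arrays. Some items these rules name are not reported here.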

Additional observations from a re-analysis of the deposited data

Results flagged for a closer look

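For 5 of the 9 member probes above background on all 4 arrays (55.6%), beside 50.7% of 19127 such probes in all, the log2 ratio of ASK1KO to WT had opposite signs in the 2 tissues, so the 1 array pair of each tissue moved in a different direction. None of these differences was tested, since each tissue has 1 array a genotype. Taking the iBAT ratio minus the eWAT ratio, the difference was -0.63 for Bmp7 (probe A_52_P278354), 0.69 for Bmp4 (A_55_P2154387; the gene's ratios were 0.02 and -0.11 with its dim probe averaged in), 0.77 for Fst (A_55_P2394308), -0.28 for the first probe of Vegfa (A_52_P249424) and -0.18 for its second probe (A_52_P638895), whose iBAT ratio of -0.05 was within the technical SD of 0.058.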

How the results depend on the processing

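Of 90 values of the 6 members detected on all arrays in the tissue fit under the alternatives, 88 kept their side of the threshold and 88 their sign. Nrg4 was lost with no scaling (0.22, adjusted p 0.20 in limma) and Gdf15 without the WT iBAT array (-1.39). The fits with 1 array left out had tissue as the only term, so they changed the model as well as the arrays. In them 1 array is assumed to vary like the others. Fst, not past the threshold, turned positive without the WT iBAT array (0.21) and without the WT eWAT array (0.17). Adjusted p in limma ran from 0.00015 to 0.20 for Nrg4. For Gdf15 the lowest, 6.864e-06, came from the series table, where limma gave every member the same SE (0.325). The highest came without the WT iBAT array. With no scaling the median log2 ratio of all genes between tissues was -0.80 in WT and -0.75 in ASK1KO mice, beside 0.12 and 0.03 as scaled, and Fst in ASK1KO mice turned from 0.38 to -0.39. The log2 ratio of Nrg4 between tissues fell under 1 in WT mice with normexp (0.96), quantile (0.85), the percentile of detected probes (0.95), no scaling (0.17) and the brightest probe (0.65), and in ASK1KO mice with normexp (0.96), quantile (0.96), median centring (0.96), the series table (0.97), no scaling (0.27) and the brightest probe (0.53). With no filter on dim probes Bmp4 gave -0.96 in WT and -0.84 in ASK1KO mice. In the genotype fit none of the 69 values of the members passed the threshold. The causes were not tested.

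The numbers of genes at least 2-fold apart were 266 between genotypes in iBAT, 177 in eWAT, and 4243 and 3622 between tissues in WT and ASK1KO mice. At 1.5-fold they were 1262, 622, 7115 and 6450, and with no filter on dim probes 1127, 1036, 9241 and 5523. Normexp gave 106 in iBAT and 60 in eWAT, probes detected on all arrays gave 114 in eWAT, and no scaling gave 5794 between tissues in ASK1KO mice. The tissue fit called 7874 genes, and 4687 to 9014 when 1 array was left out. The genotype fit called 0, but 5 with normexp, 32 with median centring and 126 with the series table. The degrees of freedom of limma, pooled over genes, also differed: 4.16, 8.76, 12.6 and infinite in the same order. These counts are thus not a like-for-like measure of genotype differences. The split into higher and lower moved with scaling: in iBAT between genotypes it was 120 to 146, but 170 to 105 with the percentile of detected probes, 90 to 186 with centring on the median and 88 to 190 from the series table. Between tissues it was 2338 to 1905 in WT and 1790 to 1832 in ASK1KO mice, but 724 to 5635 and 621 to 5173 with no scaling, and in the tissue fit 3973 to 3901, but 1400 to 10254. The tissue fit has genotype as a term, and without it 4262 genes were higher and 4125 lower. The fits with 1 array left out also lacked that term. No paired analysis by replicate number was possible because each group has 1 array. Slide and scan could not be fitted as blocks, since all arrays share 1. Bmp8b on 4 arrays and Fgf21 on 3 lay below the signals called above background.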
